A study of Homo sapiens with 3 samples.

Results

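BHLHE40, BHLHE41 and CIART, 3 repressors of the circadian clock outside the PERIOD and CRYPTOCHROME families, were examined in the BMAL1 and MAX ChIP-seq peak lists of MDA-MB-231 cells. A peak was taken as theirs when its summit lay in the gene body or within 20 kb of a transcription start site (TSS) of the gene in the GENCODE annotation of hg19. By this rule 15 of the 14406 listed peaks were found, 7 of the 756 BMAL1 peaks and 8 of the 13650 MAX peaks. BHLHE40 held 3 BMAL1 and 7 MAX peaks, BHLHE41 held 3 BMAL1 peaks and 1 MAX peak, and CIART held 1 BMAL1 peak and 0 MAX peaks. MDA-MB-231 cells, a human line of triple-negative breast cancer, were grown here without synchronization of the clock and without any knockdown. Its chromatin was cross-linked with 1% formaldehyde for 10 min at 80% confluence and precipitated with 4 µg of antibody against BMAL1 or MAX, and input chromatin of the same line was the control. Each antibody and the input was represented by 1 library, so no value has a replicate error, and every interval and test covers the counting error of these libraries only.

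BMAL1 pairs with CLOCK to form the activator of the clock, which binds the E-box CACGTG and the related E'-box CACGTT and drives the genes of its own repressors. BHLHE40 (DEC1) and BHLHE41 (DEC2) are bHLH-Orange proteins that bind E-boxes themselves and repress CLOCK-BMAL1 transcription, and CIART (CHRONO) is a repressor that associates with BMAL1. MAX is the bHLH-zipper partner of MYC and of the repressors MNT and MXD, and its dimers also recognize CACGTG. Occupancy of both factors at these genes addresses the question of the study, whether MAX binds where the clock activator binds.

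The DNA around 6 of the 7 BMAL1 summits is shown first, because the E-boxes in it differed in number and spacing between the genes. The sequences were read from hg19 on the plus strand, 100 bp to either side of the summit, and the CIART window ends where a transcribed exon begins. BHLHE41 is transcribed from the minus strand, and the other genes from the plus strand. Capitals mark the E-box CACGTG and the E'-box, written CACGTT or, on the other strand, AACGTG. The number in each name is the distance of the summit from the canonical TSS in bp, negative when upstream.
CIART BMAL1 -62 (chr1:150254802-150254952): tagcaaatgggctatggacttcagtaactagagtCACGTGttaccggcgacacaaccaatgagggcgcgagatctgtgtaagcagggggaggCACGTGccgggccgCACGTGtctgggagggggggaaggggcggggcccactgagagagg
BHLHE41 BMAL1 +10459 (chr12:26267411-26267611): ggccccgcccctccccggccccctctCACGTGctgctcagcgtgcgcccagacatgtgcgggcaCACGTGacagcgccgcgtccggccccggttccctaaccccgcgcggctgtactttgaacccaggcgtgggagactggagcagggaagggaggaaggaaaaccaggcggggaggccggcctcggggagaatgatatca
BHLHE41 BMAL1 -997 (chr12:26278867-26279067): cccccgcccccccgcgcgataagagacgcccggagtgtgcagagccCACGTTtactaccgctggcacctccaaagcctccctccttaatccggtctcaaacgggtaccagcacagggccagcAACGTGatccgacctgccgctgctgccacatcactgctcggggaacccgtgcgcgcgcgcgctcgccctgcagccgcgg
BHLHE41 BMAL1 -1481 (chr12:26279351-26279551): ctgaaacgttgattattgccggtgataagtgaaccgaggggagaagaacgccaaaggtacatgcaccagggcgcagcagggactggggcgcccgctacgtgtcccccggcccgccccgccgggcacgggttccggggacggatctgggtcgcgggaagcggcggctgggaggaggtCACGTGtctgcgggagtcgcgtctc
BHLHE40 BMAL1 +7605 (chr3:5028627-5028827): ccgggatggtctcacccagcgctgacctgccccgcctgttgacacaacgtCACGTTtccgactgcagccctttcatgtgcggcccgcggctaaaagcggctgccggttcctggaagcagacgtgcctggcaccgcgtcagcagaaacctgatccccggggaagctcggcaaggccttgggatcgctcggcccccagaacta
BHLHE40 BMAL1 +15605 (chr3:5036627-5036827): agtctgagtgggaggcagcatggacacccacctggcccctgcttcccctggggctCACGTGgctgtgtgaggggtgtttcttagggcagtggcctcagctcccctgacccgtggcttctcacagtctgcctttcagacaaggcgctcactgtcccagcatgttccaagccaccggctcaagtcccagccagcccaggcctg

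All 7 BMAL1 peaks held an E-box or an E'-box between their start and end (exact 95% interval 59.0% to 100%). The list share with either element is not given here, but it is at least the share with CACGTG below. CACGTG itself was present in 5 of 7 (71.4%, exact 95% interval 29.0% to 96.3%), and in each of the 5 it also lay within 100 bp of the summit. Over the whole BMAL1 list 81.7% of peaks held CACGTG, and 75.4% held it within 100 bp of the summit. Both shares at the 3 genes were near those of the list. The E'-box was present in 17.3% of the listed BMAL1 peaks. The pair without CACGTG, the peak 997 bp upstream of BHLHE41 and the peak 7605 bp downstream of the BHLHE40 TSS, carried the E'-box instead.

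The CIART peak stood at the high end of the list in the number of its E-boxes. It contained 5 CACGTG elements, and 5 of the 756 BMAL1 peaks (0.661%), CIART included, held 5 or more. Of these elements, 3 started within 100 bp of the summit, at 66 and 8 bp before it and 6 bp after it, with 52 and 8 bases between neighbours. Windows with 3 or more were found at 15 BMAL1 summits (1.98%). The same 3 elements start 128, 70 and 56 bp upstream of the canonical CIART TSS. All 3 genes were matched in the RefSeq promoters of GRCh38.p14, which run from 250 bases before to 50 after the start. There 33 of 35116 (0.0940%) held CACGTG 3 times or more, CIART among them, while 7.26% held it at all.

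At BHLHE41 the distal peak held a pair of E-boxes, and the upstream peaks differed from each other. In the distal peak both CACGTG elements lay on the same side of the summit, starting 74 and 36 bp from it, with 32 bases between them. In the peak 997 bp upstream, CACGTT and AACGTG started 54 and 22 bp from the summit, on opposite sides of it. In the peak 1481 bp upstream, CACGTG started 76 bp from the summit. The E-box nearest to the BHLHE41 TSS, 48 bp upstream of it at chr12:26278013-26278018, lay in no listed peak of either factor, and the nearest BMAL1 summit was 954 bp away.

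At the downstream sites of BHLHE40 each summit window held 1 E-box or E'-box. In the peak at +7605 CACGTT started 50 bp from the summit, and in the peak at +15605 CACGTG started 45 bp from it, with an E'-box 131 bp away. The plot of element positions shows that within 250 bp, among these 6 peaks, CIART carried elements closest to its summit.

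**Figure D1:**
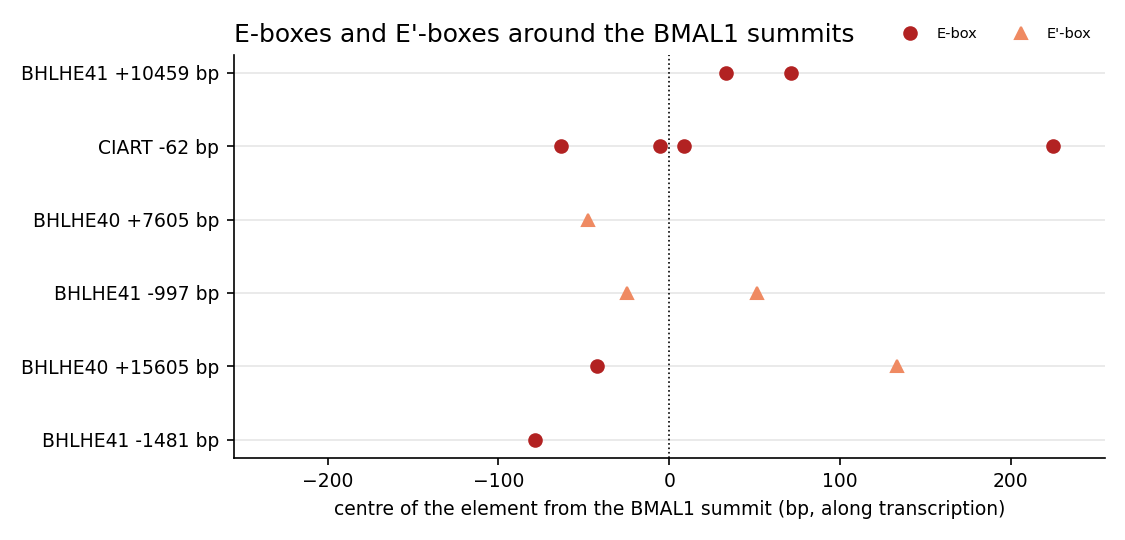
E-boxes (circles) and E'-boxes (triangles) within 250 bp of 6 BMAL1 summits at the 3 genes, ordered by pileup from top to bottom; the x axis is the distance of the element's centre from the summit in bp along transcription. CIART has 3 E-boxes within 100 bp of its summit, BHLHE41 +10459 has 2 on the same side, and BHLHE40 +7605 and BHLHE41 -997 have E'-boxes but no E-box.

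BHLHE40, at chr3:5021122-5027008 on the plus strand, had peaks of both factors at 3 sites, and all 3 of its BMAL1 peaks overlapped a MAX peak. The peaks come from separate libraries of unsynchronized cells, so a shared site does not show both factors bound at the same time. Of 20163 protein-coding genes, 4.97% had a BMAL1 peak by the same rule and 54.8% had a MAX peak. A gene with 3 or more BMAL1 peaks was seen in 0.0645% of cases, 13 genes including BHLHE40 and BHLHE41. SSPN was among the 13 through the same peaks as BHLHE41, and other genes of the 13 also shared peaks. A gene with 7 or more MAX peaks was seen in 0.491%. This threshold was the count of BHLHE40 itself. That count includes a peak 20389 bp from the canonical TSS, which met the rule only through an alternative TSS. The region searched was 40796 bp for BHLHE40, 41270 bp for BHLHE41 and 40001 bp for NR1D1, the REV-ERB-alpha gene, which also held 3 BMAL1 peaks. At the other genes of the 13 it ran from 65487 to 1068766 bp.

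The BHLHE40 promoter site had its BMAL1 summit 313 bp upstream of the TSS, in an intron of the antisense gene BHLHE40-AS1. BMAL1 reached a pileup of 25 extended fragments at the summit (exact Poisson 95% interval 16.2 to 36.9), a 14.4-fold enrichment over the input background. MAX reached 33 fragments (22.7 to 46.3) and 17.4-fold, higher than 92.9% of the MAX list. Both peaks covered nearly the same promoter stretch, but their summits lay 390 bp apart.

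The site past the 3' end of BHLHE40 had the highest fold enrichment of the gene for both factors. Its BMAL1 summit lay 7605 bp downstream of the TSS and 1719 bp beyond the gene end, in sequence without an annotated gene, within the peak chr3:5028493-5028994. BMAL1 reached 29 fragments (19.4 to 41.6) and 15.3-fold. MAX reached 32 fragments (21.9 to 45.2) and 20.3-fold, above 96.4% of the MAX list, at a summit 24 bp from that of BMAL1. Both summits lay on the same side of the CACGTT of the sequence printed above, 50 bp (BMAL1) and 26 bp (MAX) from its start.

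The third shared site, 15605 bp downstream of the TSS and 9719 bp beyond the gene end, was weaker. BMAL1 reached 19 fragments (11.4 to 29.7) and 8.03-fold in the peak chr3:5036589-5036888, above 27.2% of its list. MAX reached 21 fragments (13.0 to 32.1) and 10.4-fold, and its summit lay 144 bp from that of BMAL1. The BMAL1 summit lay 45 bp from the start of the CACGTG of this site, and the MAX summit 13 bp from the start of its AACGTG and 189 bp from the CACGTG.

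The 4 MAX peaks of BHLHE40 without BMAL1 had pileups of 14 to 24 fragments and enrichments of 7.50 to 11.0-fold. The peak 2182 bp upstream reached 16 fragments and 11.0-fold, and the peak in the BHLHE40 UTR, 4427 bp downstream of the TSS, reached 16 fragments and 7.96-fold. The peak at 16336 bp reached 24 fragments and 7.62-fold. None of these 3 peaks held an E-box or E'-box. In the peak at 4427 bp, however, CACATG and CATGTG started 7 and 9 bp from the summit. The peaks 2182 bp upstream and at 16336 bp held neither sequence. In the MAX list 16.8% of peaks held CATGTG or CACATG within 100 bp of the summit, and its part in MAX binding was not tested. The peak at 20389 bp, with 14 fragments and 7.50-fold, did hold CACGTG, starting 15 bp from its summit. That window is shown because it holds the only E-box among the 4 MAX peaks of BHLHE40 that BMAL1 did not share.
BHLHE40 MAX +20389 (chr3:5041411-5041611): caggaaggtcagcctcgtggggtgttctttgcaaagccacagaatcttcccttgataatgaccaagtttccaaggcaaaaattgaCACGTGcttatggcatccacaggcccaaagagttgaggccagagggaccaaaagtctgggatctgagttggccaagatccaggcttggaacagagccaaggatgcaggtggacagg
This peak was the member nearest to the limit of the rule, 19594 bp from an alternative TSS of BHLHE40. The nearest MAX peak outside the rule was 36496 bp from a BHLHE40 TSS, with 18 fragments and 9.01-fold. Over the 8 MAX peaks, 4 (50%, exact interval 15.7% to 84.3%) held CACGTG, against 29.8% of the MAX list. Within 100 bp of the summit 2 of 8 (25%) held it, near the 21.2% of the MAX list.

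**Figure D2:**
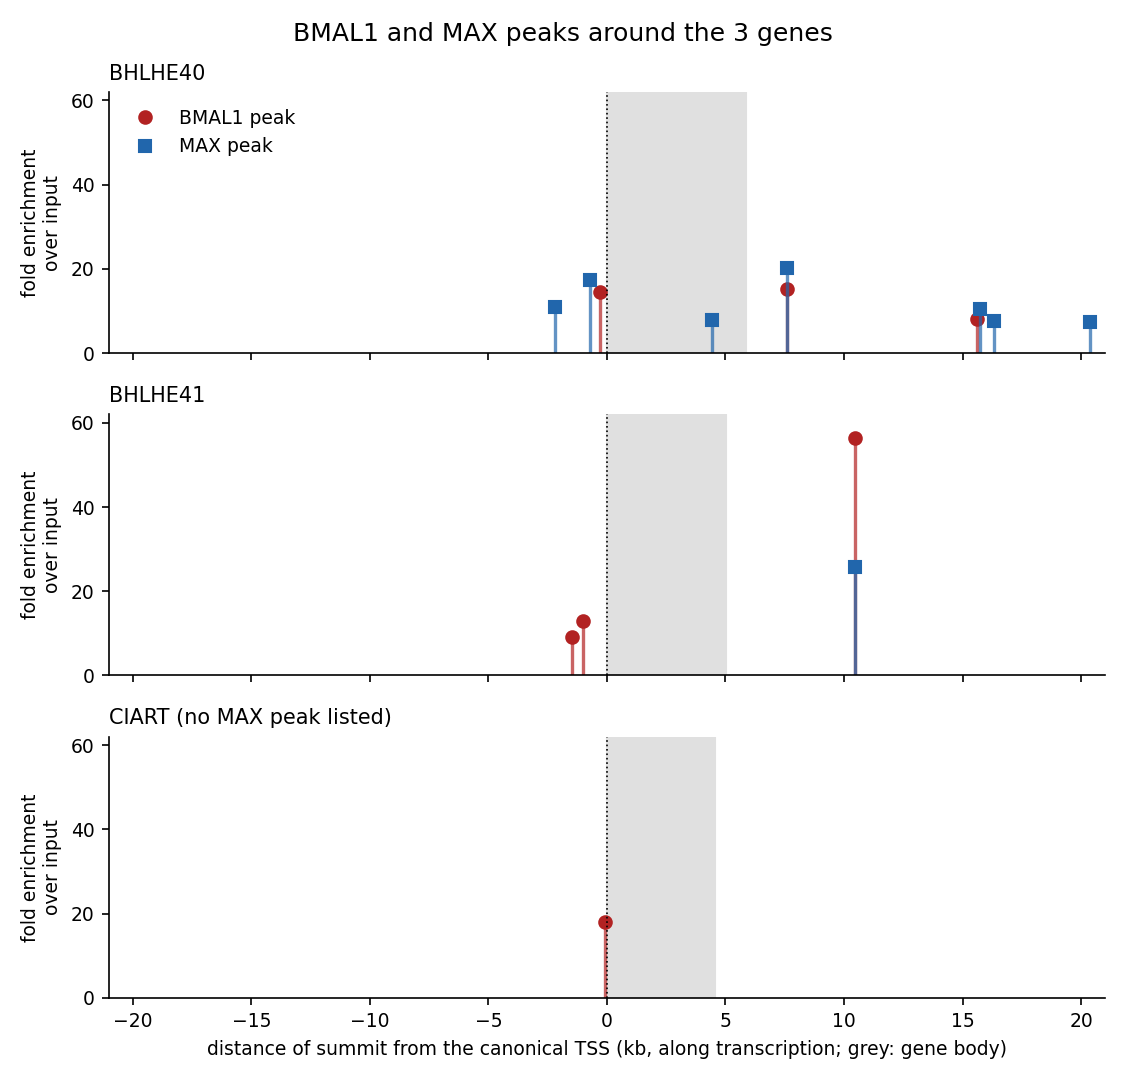
Fold enrichment over the input background (y axis) of every BMAL1 peak (red circles) and MAX peak (blue squares) at the 3 genes, by the distance of its summit from the canonical TSS in kb along transcription (x axis), with the gene body in grey. BHLHE40 has peaks of both factors at 3 places, the highest point is the distal BMAL1 peak of BHLHE41 at 56.4-fold, and CIART has a BMAL1 peak alone.

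BHLHE41, at chr12:26272963-26277970 on the minus strand, had the strongest site of the 3 genes, and it lay beyond the 3' end. The BMAL1 summit at chr12:26267511 was 10459 bp downstream of the canonical TSS and 5452 bp past the gene end, in sequence without an annotated gene. The peak, chr12:26267160-26267855, reached 92 fragments (74.2 to 112.8) and 56.4-fold, above 98.3% of the BMAL1 list. MAX reached 35 fragments (24.4 to 48.7) and 25.8-fold in the same place, above 98.9% of the MAX list, with summits 10 bp apart. A TSS of SSPN, which encodes sarcospan of the dystrophin-glycoprotein complex, lay closer to this summit, at 7413 bp. All 4 peaks of BHLHE41 also met the rule for SSPN and for the long non-coding RNA gene ENSG00000256894, so the lists alone do not assign them to a gene. The same holds for all peaks of BHLHE40, which met the rule for BHLHE40-AS1, with a TSS of that gene closer to the BMAL1 summits at +7605 (6628 bp) and +15605 (14628 bp). The CIART peak also met it for the coding genes APH1A, C1orf54, CA14 and MRPS21 and for ENSG00000289041, none of which had a TSS closer to the summit.

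The other BMAL1 peaks of BHLHE41 lay upstream and had no MAX peak. The peak 997 bp upstream, chr12:26278801-26279193, reached 20 fragments (12.2 to 30.9) and 13.0-fold. The peak 1481 bp upstream, chr12:26279319-26279622, reached 14 fragments (7.65 to 23.5) and 9.09-fold. Both summits fell in an exon of ENSG00000256894 and an intron of SSPN, and a TSS of that RNA was 50 and 99 bp away. The rank of these small peaks depended on the measure: the peak at 997 bp was above 69.6% of the BMAL1 list by fold enrichment and above 29.8% by pileup, and the peak at 1481 bp above 37.3% and 1.19%.

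CIART, at chr1:150254953-150259505 on the plus strand, had a BMAL1 peak at its promoter and no MAX peak within the rule. The peak, chr1:150254438-150255167, had its summit 62 bp upstream of the canonical TSS and 51 bp from the nearest CIART TSS. It reached 51 fragments (38.0 to 67.1) and 18.0-fold, above 84.8% of the BMAL1 list. The nearest MAX summit was 37995 bp from a CIART TSS and 11 bp from a TSS of PRPF3, a gene for a splicing factor. Of the 1003 genes with a BMAL1 peak, 32 (3.19%) had no MAX peak by the same rule, CIART among them.

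Across the 3 genes, 4 of 7 BMAL1 peaks overlapped a MAX peak by at least 1 bp (57.1%, exact interval 18.4% to 90.1%). In the BMAL1 list 84.1% did, a value within that interval. In the other direction 4 of 8 MAX peaks overlapped a BMAL1 peak (50%, exact interval 15.7% to 84.3%), against 4.67% of the MAX list. These peaks lie at 2 genes and neighbouring sites share a locus, so they are not independent draws from the list.

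The missing MAX peak at CIART was set against the depth of the MAX library. At this site the local background implied for MAX was 2.36 fragments, from the BMAL1 background and the ratio of the tags used. With the cutoff of 1e-05 in the list header, a MAX pileup of 11 would have been listed and 10 would not, and 11 was also the lowest pileup among 1301 listed MAX peaks with a background within 0.1 of it. By this calculation MAX at CIART would be below 11 fragments, and occupancy under that level was not detectable at this depth. The calculation takes the summit pileup alone and an implied background, so the limit is approximate. For the upstream peaks of BHLHE41 the same calculation gave a highest unlisted pileup of 7, and the lowest pileup listed at such a background was 9.

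BMAL1 peaks as strong as that of CIART were mostly shared with MAX, at shares near the 84.1% of the whole BMAL1 list. Of 93 BMAL1 peaks with 51 fragments or more, 79 overlapped a MAX peak. Among 44 with a pileup within 5 fragments of it, 39 did, with MAX pileups of 12 to 100 fragments and a median of 37. The 120 BMAL1 peaks without MAX had a median of 22 fragments, and 14 of them, CIART included, reached 51 or more.

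In the order of BMAL1 pileups at the 3 genes, the distal BHLHE41 site stood above the rest. Its 92 fragments exceeded the 51 of CIART 1.80-fold (exact two-sided binomial test, Benjamini-Hochberg adjusted p = 0.00459 over 6 neighbours). CIART stood 1.76-fold above the next site, BHLHE40 +7605, without passing the threshold (exact binomial test, adjusted p = 0.0549). The 4 neighbour pairs below, from 29 to 14 fragments, did not differ beyond counting error (adjusted p of 0.820 or more, exact binomial test). For MAX the pileups ran from 35 at BHLHE41 through 33, 32, 24, 21, 16 and 16 to 14 at BHLHE40. None of the 7 neighbour pairs differed by the exact binomial test (adjusted p = 1 in each), and 0 of 7 had an unadjusted p under 0.05. For both factors the pairs were formed by ordering these same pileups. Small gaps between neighbours were therefore built in, and the tests do not show the sites to be alike. The top BMAL1 pair was likewise picked by its values. The MAX interval at 35 fragments (24.4 to 48.7) lay above that at 14 (7.65 to 23.5).

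**Figure D3:**
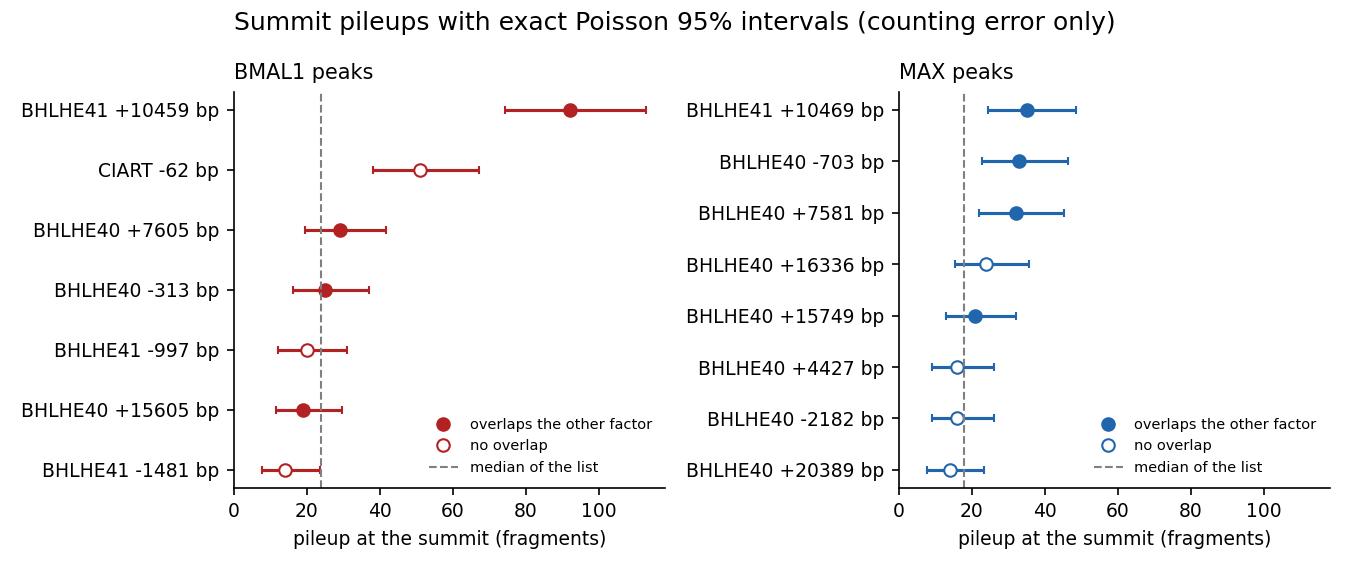
Pileup at the summit in fragments (x axis) of the 7 BMAL1 peaks (left) and the 8 MAX peaks (right), ordered by value, with exact Poisson 95% intervals as bars, filled points for peaks that overlap the other factor and the median of each list as a dashed line. The BMAL1 interval of BHLHE41 +10459 lies above all others on the left, while on the right the MAX intervals of neighbours overlap and that of the highest, at 35 fragments, lies above that of the lowest, at 14.

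The balance of BMAL1 to MAX was not the same at the shared sites of BHLHE41 and BHLHE40. A ratio between antibodies has no absolute meaning, but a ratio that differs between sites can be compared. The pileup ratio was 2.63 at the distal BHLHE41 site, above 95.1% of the 636 shared pairs in the lists. These pairs were not matched for BMAL1 pileup, so the rank partly restates the high BMAL1 value. At the other shared pairs with 87 to 94 BMAL1 fragments, MAX ran from 18 to 60, on both sides of the 35 here. At BHLHE40 it was 0.758 at the promoter, 0.906 at +7605 and 0.905 at +15605, near the list median of 0.959 (quartiles 0.686 and 1.38).

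The BHLHE41 site differed in balance from each of the BHLHE40 sites. Each of these tests uses its 92 BMAL1 fragments, the value already tested in the order of pileups. Its 35 MAX fragments stood against 33, 32 and 21 at BHLHE40. The tests are therefore not independent of each other or of that order. The odds ratio was 3.47 (95% interval 1.81 to 6.64) against the promoter (two-sided Fisher's exact test, adjusted p = 0.00153 over 6 pairs). It was 2.90 (1.54 to 5.48) against +7605 (Fisher's exact test, adjusted p = 0.00338) and 2.91 (1.40 to 6.04) against +15605 (Fisher's exact test, adjusted p = 0.0132). The BHLHE40 sites among themselves gave odds ratios of 0.836 (0.406 to 1.72), 0.837 (0.373 to 1.88) and 1.00 (0.451 to 2.23), and none passed Fisher's exact test (adjusted p of 0.856 or more). The intervals of the BHLHE40 pairs together span odds ratios from 0.373 to 2.23, so differences of that size were not detectable between these sites. At the BHLHE40 promoter the 2 pileups come from summits 390 bp apart.

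CIART had no measured MAX pileup and stands outside this comparison. With the highest MAX pileup that would have stayed unlisted by the calculation above, its ratio of BMAL1 to MAX would be at least 5.1. This approximate bound follows from the absence of a listed MAX peak, so no rank among the shared pairs is given.

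**Figure D4:**
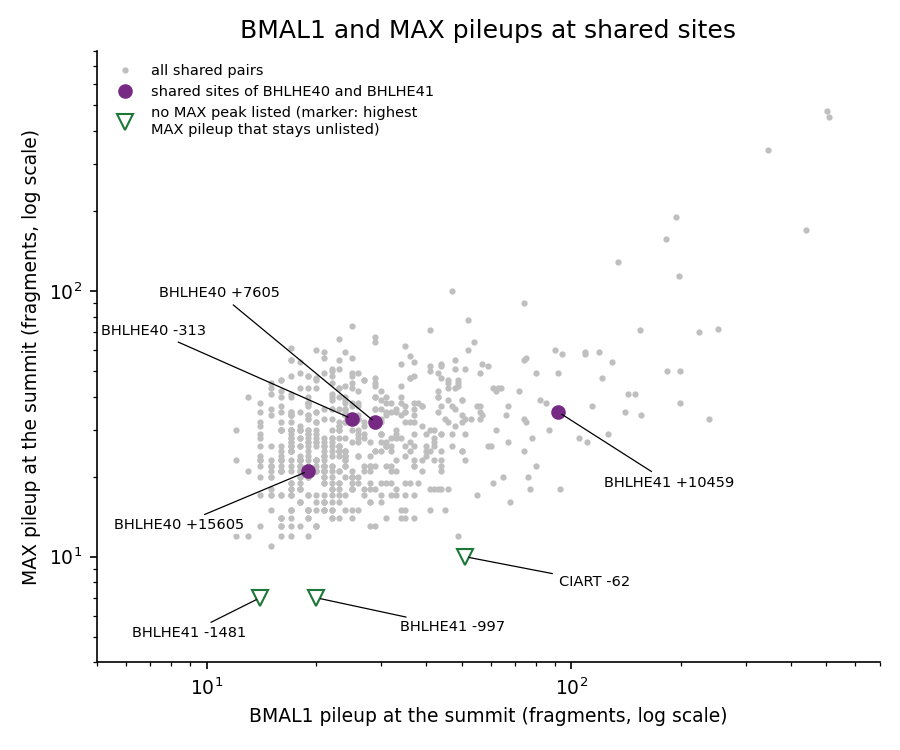
BMAL1 pileup (x axis) against MAX pileup (y axis), both in fragments on log scales, for the 636 pairs of overlapping peaks (grey), the 4 shared sites of BHLHE40 and BHLHE41 (purple) and the 3 BMAL1 peaks without MAX, drawn at the highest MAX pileup that would stay unlisted by the Poisson calculation (green triangles). The 3 BHLHE40 sites lie within the cloud, and BHLHE41 +10459 lies toward its BMAL1-rich side, with other shared pairs beyond it. The CIART limit lies below the cloud.

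Among the other clock genes with a BMAL1 peak, the 3 repressors were in the middle or lower part by BMAL1 enrichment. Clock genes without a listed peak are left out of this order. Of 17 further clock genes searched by the same rule, 9 had a BMAL1 peak and 11 a MAX peak. The highest BMAL1 enrichment at BHLHE41, 56.4-fold, was exceeded at 5 of the 9, and those of BHLHE40 (15.3-fold) and CIART (18.0-fold) at 8 of the 9. The leading genes were NR1D1 with 126.8-fold, PER1 with 110.7-fold and DBP with 94.6-fold. By MAX, BHLHE41 was exceeded at 5 and BHLHE40 at 6 of the 11, with PER1 at 53.9-fold, NR1D1 at 39.0-fold and DBP at 31.2-fold in front.

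The counts by role stand beside the 4.97% of all protein-coding genes with a BMAL1 peak and the 54.8% with a MAX peak, and with 4 or 5 genes in a list a MAX count of 2 or 3 is near that background. The PER and CRY repressors had BMAL1 at 5 of 5 genes and MAX at 4 of 5, with a median BMAL1 enrichment of 47.4-fold over 7 peaks. The nuclear receptor genes NR1D1, NR1D2, RORA and RORB had BMAL1 at 2 of 4 and MAX at 2 of 4, with a median of 54.1-fold over 4 peaks. The PAR bZIP output factors with NFIL3 had BMAL1 at 2 of 4 and MAX at 3 of 4, with 54.8-fold over 3 peaks. The median over the 7 BMAL1 peaks of BHLHE40, BHLHE41 and CIART was 14.4-fold, between these and the 10.3-fold of the whole list. The activator genes (ARNTL, which encodes BMAL1 itself, ARNTL2, CLOCK and NPAS2) had BMAL1 at 0 of 4 and MAX at 2 of 4. BMAL1 without MAX, as at CIART, was also found at PER3 (13.0-fold).

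**Figure D5:**
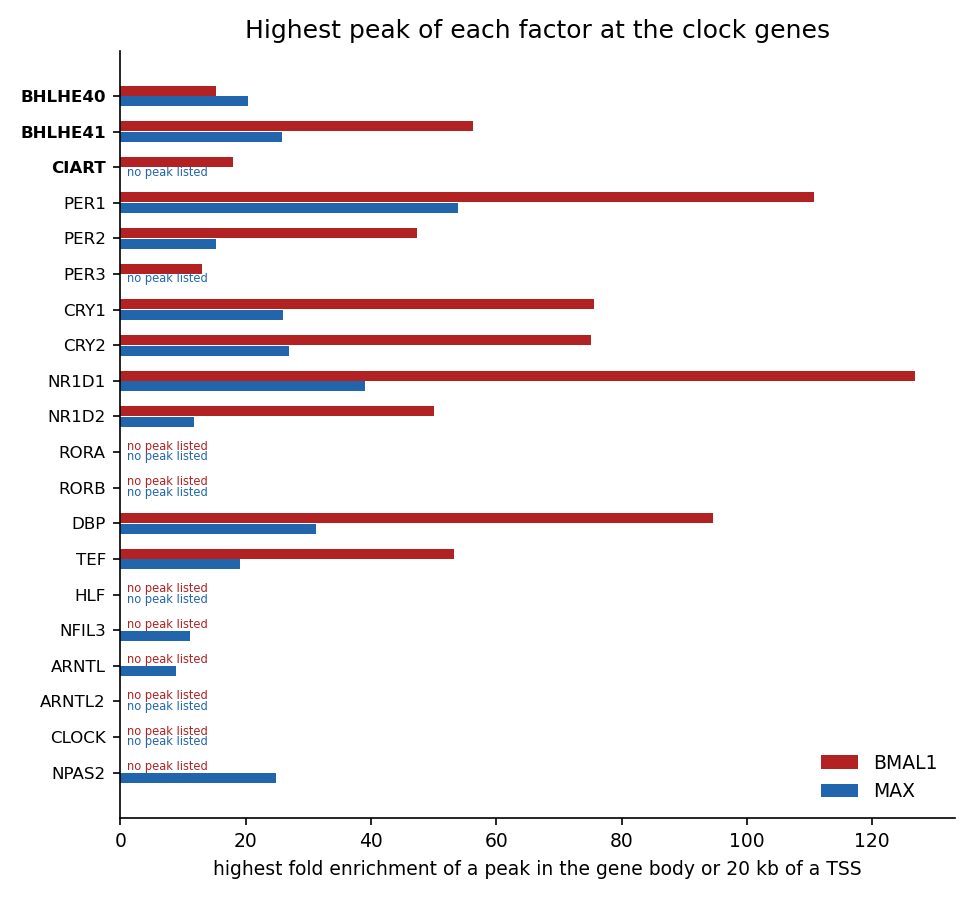
Highest fold enrichment over input of a BMAL1 peak (red bars) and of a MAX peak (blue bars) at the 3 repressor genes (bold) and 17 other clock genes, from 0; genes without a peak of a factor are marked. NR1D1 has the longest BMAL1 bar (126.8-fold), BHLHE41 reaches 56.4-fold, and CIART and PER3 have BMAL1 bars alone.

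The HES and HEY genes, which encode the bHLH-Orange relatives of the DEC proteins, had BMAL1 at 1 of 11 and MAX at 6 of 11, against 4.97% and 54.8% of all protein-coding genes, so the MAX count was near the background. The BMAL1 gene was HES1, the Notch effector, with 14.7-fold for BMAL1 and 20.0-fold for MAX. Among 971 genes with peaks of both factors, HES1 was the nearest to BHLHE40 by the highest enrichment of each, at a distance of 0.06 on the log2 scale over the 2 libraries. PTPRH and SYT5 followed at 0.10, at the same enrichments as each other. For BHLHE41 the nearest was SSPN at 0, through the same peaks, and then NR6A1 and OLFML2A at 0.20, with 58.2-fold for BMAL1 and 22.5-fold for MAX at both genes.

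The base composition of the sites was at or above that of the list for BMAL1. The GC content of the windows at the 7 BMAL1 summits ran from 62.2% to 72.1% with a median of 67.7%, against a list median of 60.2%. At the 8 MAX summits it ran from 48.3% to 72.6% with a median of 57.5%, below the MAX list median of 60.2%. The part of base composition in the pileups was not tested.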

How the data were processed

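BMAL1 and MAX ChIP-seq and input libraries of MDA-MB-231 cells, 1 each, were used as 2 peak lists; the input enters through the values in them. The authors aligned reads on hg19 with BWA 0.6.2 and called peaks with MACS2 2.0.9, separately for each antibody, from 13866783 (BMAL1), 11545865 (MAX) and 29308882 (input) tags. Per the file headers, tags were extended to 300 bp, duplicates limited to 2 (BMAL1) or 1 (MAX) per position, and the p cutoff was 1e-05, while the methods give 1e-08. All listed peaks were used. The deposited pileup is the signal (coverage of extended fragments) at the summit. The deposited fold enrichment is its ratio to the local input background. The deposited −log10 p-values and q-values served only for checks and stricter thresholds.

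Summits were assigned by GENCODE release 44 on GRCh37, the assembly hg19 names. Overlap required 1 bp. Pileups of neighbours in the order were compared by exact two-sided binomial tests and shared sites by two-sided Fisher's exact tests, Benjamini-Hochberg adjusted with a threshold of 0.05. Fragments carry no molecular identifiers, so intervals cover counting error only. The genes, lists and tests were chosen with earlier results of these data known. Named genes were the 3 repressors, fixed lists of clock and HES/HEY genes with their 3 highest per factor, genes with a TSS closer to a peak, and the 3 genes nearest in enrichment. A gene of the clock list and a sequence are not reported here. PRPF3 and the further genes that share the CIART peak were named after their values were seen. The steps were tested on simulated data. Alternatives covered the region, threshold, overlap and measure. Python 3.11.15, numpy 2.4.6, pandas 2.3.3, scipy 1.17.1 and pysam 0.24.0 were used.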

Additional observations from a re-analysis of the deposited data

How the results depend on the processing

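Of 57 alternative values, 45 stayed within 1.5 times the reported value and 12 moved. The region moved most. With the gene body or 10 kb of a TSS the 3 genes held 5 MAX peaks in place of 8, and with 50 kb they held 13, while the share of genes with a BMAL1 peak rose to 8.40%. With only 1 kb of a TSS they held 3 BMAL1 peaks and 1 MAX peak, 1 BMAL1 peak overlapped MAX, 3 peaks held CACGTG, and 1.84% of genes had a BMAL1 and 36.3% a MAX peak. When summits at most 100 bp apart were required, 2 BMAL1 peaks overlapped a MAX peak, and the balance test passed in 1 of 1 remaining pair. With CIART added at the highest unlisted MAX pileup, an alternative chosen after the data were seen, it passed in 6 of 10, but that pileup is a limit and not a measured count, and CIART was added for its lack of a MAX peak, so the added pairs support nothing. Of 30 alternative ranks of the peaks in their list, by pileup or −log10 p in place of fold enrichment, 28 moved beyond the Wilson interval, 9 higher and 19 lower. No paired analysis was possible because each antibody has 1 library. At a median of 24 BMAL1 and 18 MAX fragments per summit, the depth limits each comparison to large differences, and an unlisted peak is not an absent one.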
